A study of Mus musculus with 33 samples.

Results

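Bone morphogenetic protein (BMP) signalling was followed through 10 genes in P19 cells. They are the ligand genes Bmp2, Bmp4 and Bmp7, the target genes Id1, Id2 and Id3, the inhibitory Smad genes Smad6 and Smad7, and the antagonist genes Nog and Fst. They were chosen by name as components of the pathway, with earlier results of these data known. Their shares against those of all genes are therefore descriptive. All 10 were found among the 14717 genes of the deposited table. P19 cells derive from a mouse teratocarcinoma, are kept as multipotent stem-like cells and form different lineages under different inducers. RNA was measured in 15 libraries, 3 for each of 5 groups. D0 is undifferentiated P19 cells at day 0 without either agent. D3RA and D6RA are cells at days 3 and 6 of differentiation in 1 µM all-trans retinoic acid, while 1% dimethyl sulfoxide (DMSO) replaced it in D3DMSO and D6DMSO. For differentiation the cells formed embryoid bodies for 2 days in bacteriological dishes before they went to flasks with maintenance medium, which held charcoal-stripped serum in all groups. All groups come from this 1 line. The design text names the 3 samples of a group biological replicates without saying that they came from separate cultures, so the error behind each p-value is that between these libraries and may be technical. The other 18 samples of the series, immunoprecipitations of H3K9me2 and H3, are not analysed here.

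BMPs are secreted ligands of the TGF-beta family. They bind a pair of type I and type II serine/threonine kinase receptors, which phosphorylate Smad1, Smad5 and Smad9, and these enter the nucleus with Smad4. The Id genes are among the best known direct targets and encode helix-loop-helix proteins that block basic helix-loop-helix factors, while Smad6 and Smad7 are induced by the pathway and dampen it. Noggin binds BMPs outside the cell and keeps them from their receptors, and follistatin binds mainly activin and also some BMPs. In the embryo, BMP signals promote mesoderm of ventral and cardiac fate and hold back early neural fate, and later they pattern the dorsal neural tube.

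Levels are read counts per 1 M counts (CPM, where M stands for the mega prefix), recovered from the deposited log2 values and scaled to a library size that follows the deposited scale. The D0 libraries held 7.13 to 9.88 M counts and the D3 libraries 3.55 to 9.82 M, the lowest and the highest both in D3RA. With 38.2 to 49.6 M counts, the D6 libraries were deeper. The 11 mitochondrial genes of the table had 0 counts in all D0 and D3 libraries. At day 6 their share was 41.6 to 42.6% with retinoic acid and 49.8 to 55.8% with DMSO, without overlap. Between D6 and D3, the day and the differences in depth and mitochondrial counts cannot be told apart. Treatments were compared within a day. The day 6 comparison, and the change between days that uses it, still hold the unequal mitochondrial share. Its part in their values was not tested. The summed level of the 5 measured pluripotency markers of 7 listed, Pou5f1 and Nanog among them, was 1788 to 2061 CPM in D0. It was 565 to 1134 CPM in D3DMSO and 113 to 196 CPM in the other groups. Of the 5, Sox2 made up nearly all of the sum in D3RA and D6RA (means of 147 and 187 CPM). Its mean in D6DMSO was 49.8 CPM. The mean of Pou5f1 was 1.79 CPM in D3RA, 0.115 CPM in D6RA and 47.04 CPM in D6DMSO. That of Nanog was 0.0911, 0.0598 and 12.03 CPM in the same order. The 5 measured streak and mesoderm markers of 6 listed summed to 1179 to 1301 CPM in D3DMSO and to 2.69 to 51.9 CPM in the other groups. The 6 neuron markers summed to 3111 to 3326 CPM in D6RA and to 29.3 to 35.3 CPM in D6DMSO. Their sum was 309 to 342 CPM in D0, 131 to 177 CPM in D3DMSO and 745 to 943 CPM in D3RA. Stmn2 (171 CPM) and Tubb3 (112 CPM) made up most of the D0 sum. At day 3 the mean of Stmn2 was lower in D3RA (76.2 against 89.8 CPM in D3DMSO). The means of Tubb3, Map2, Dcx, Elavl3 and Snap25 were higher in D3RA. Of the cardiac markers, 5 of 6 were measured, with a sum of 92.0 to 128 CPM in D6DMSO and 0.662 to 0.738 CPM in D6RA.

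Of the 10 genes, 9 were called lower in D6RA than in D6DMSO and 0 were called higher, by limma, adjusted over all 14717 genes by Benjamini-Hochberg with a threshold of 0.05 on the adjusted p, where 33.1% of all genes were called lower, 32.6% higher and 65.8% in either direction. Their median log2 fold change was -2.14, against -0.02 over all genes. In D3RA against D3DMSO, 3 were called higher, 3 lower and 4 were not called, where 30.7% of all genes were called higher, 31.4% lower and 62.1% in either direction, and the median was 0.16 against -0.01 over all genes. A lower level in a bulk sample can mean fewer cells of a type or less RNA per cell, and these cannot be told apart here.

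**Figure D1:**
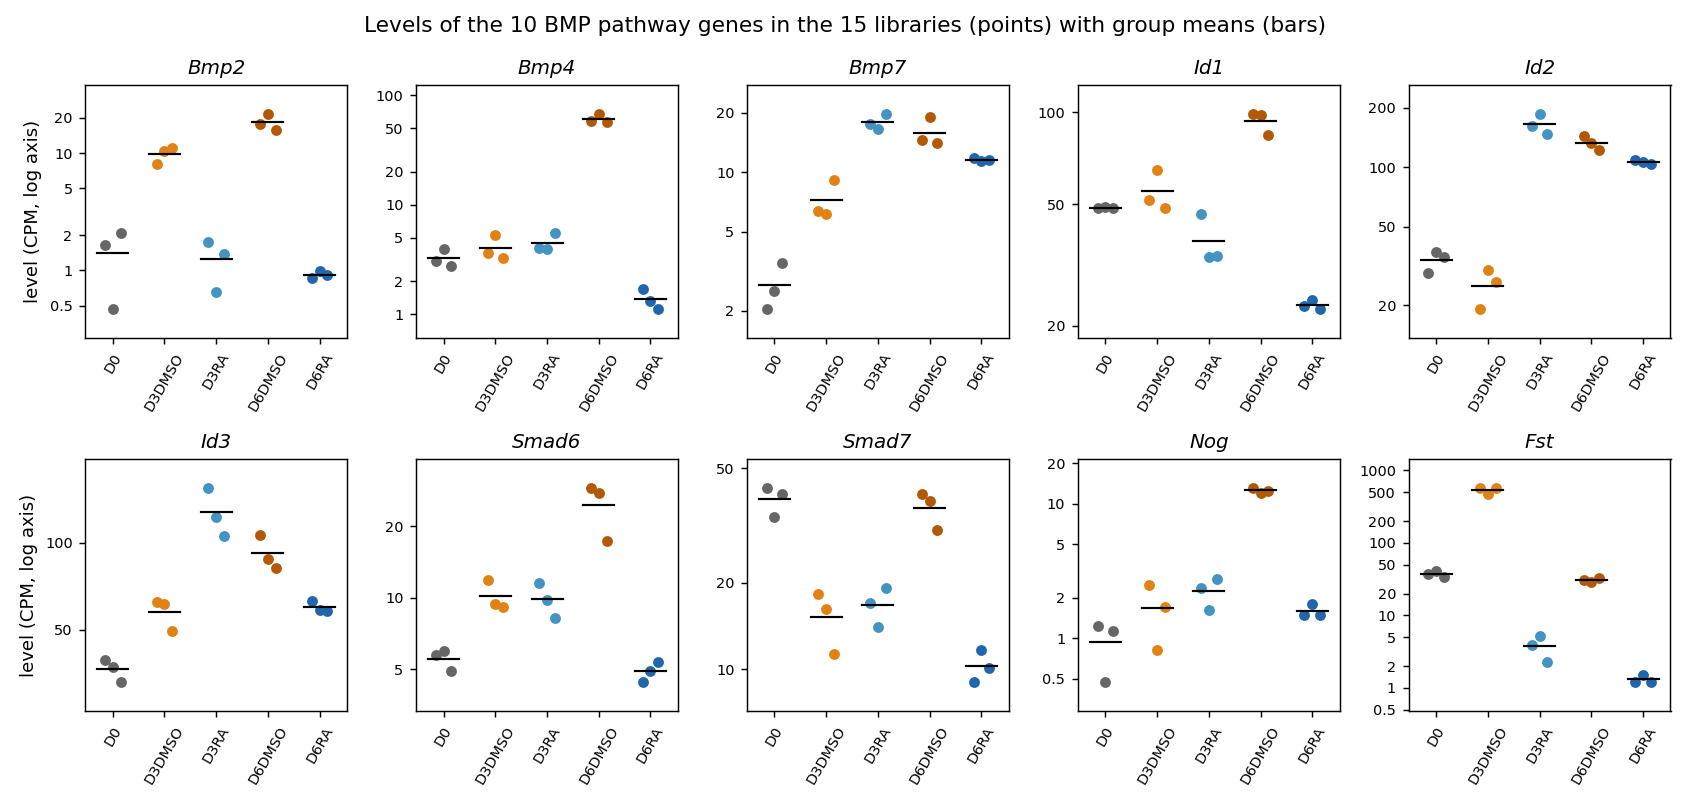
Level of each of the 10 genes in CPM (log axis, scaled separately for each gene) in the 3 libraries of each group (points), with the group mean (black bar). Bmp4 lies at 56.9 to 67.0 CPM in D6DMSO and at 5.48 CPM or less in the 12 other libraries, and Fst lies at 478 to 574 CPM in D3DMSO.

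The ligand gene Bmp4, whose product is a main BMP of the early embryo, was low through day 3 on both routes and high in D6DMSO. Its level was 3.08, 3.93 and 2.74 CPM in the D0 libraries, 3.59, 5.34 and 3.25 CPM in D3DMSO, and 4.01, 3.91 and 5.48 CPM in D3RA. The 9 libraries of D0 and D3 overlapped, and neither D3 group was called different from D0 (adjusted p = 0.261 for D3DMSO and 0.0712 for D3RA, limma), nor from the other (0.536). In D6DMSO the level was 58.1, 67.0 and 56.9 CPM, and in D6RA it was 1.69, 1.31 and 1.13 CPM. All D6DMSO libraries lay above and all D6RA libraries below every D0 and D3 library. The difference at day 6 was -5.46 ± 0.23 (log2 fold change ± SE, D6RA minus D6DMSO, n = 3 per group, limma adjusted p = 1.75e-12), and 133 of the 14717 genes had a lower value in that comparison. Bmp4 rose by 3.90 ± 0.23 from D3DMSO to D6DMSO and fell by 1.73 ± 0.23 from D3RA to D6RA on the log2 scale (limma adjusted p = 7.40e-10 and 4.07e-06).

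Bmp2, a close relative of Bmp4 that acts in cardiac and extraembryonic mesoderm, was raised on the DMSO route already at day 3. It was at 1.64, 0.472 and 2.08 CPM in D0, 8.15, 10.5 and 11.2 CPM in D3DMSO and 17.7, 21.6 and 15.9 CPM in D6DMSO. On the retinoic acid route it stayed low, at 1.73, 0.651 and 1.37 CPM in D3RA. In D6RA it was at 0.861, 0.983 and 0.908 CPM, from 26, 24 and 29 counts. The DMSO libraries of either day did not overlap with any other library. The rise from D0 to D3DMSO was 2.98 ± 0.40 on the log2 scale (limma adjusted p = 8.84e-06). It was 2.39 without D0 replicate 2, in which Bmp2 had 3 counts. Retinoic acid minus DMSO was -2.91 ± 0.40 at day 3 and -4.29 ± 0.40 at day 6 (limma adjusted p = 8.49e-06 and 5.79e-08). D3RA and D0 overlapped (adjusted p = 0.879), and the counts behind the D3RA values were 19, 2 and 3.

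Bmp7, a ligand of kidney, eye and dorsal neural tissue, rose on both routes. It was at 2.05, 2.52 and 3.50 CPM in D0, 6.35, 6.16 and 9.14 CPM in D3DMSO and 17.6, 16.6 and 19.6 CPM in D3RA. These 3 groups did not overlap. The rise from D0 was 1.42 ± 0.19 with DMSO and 2.75 ± 0.19 with retinoic acid (log2, limma adjusted p = 1.10e-05 and 2.10e-09; both share the D0 libraries), and D3RA lay above D3DMSO by 1.33 ± 0.19 (limma adjusted p = 1.65e-05). At day 6 it was at 14.6, 18.98 and 14.004 CPM with DMSO and 11.8, 11.3 and 11.6 CPM with retinoic acid, a difference of -0.44 ± 0.19 that was not called (limma adjusted p = 0.0564). The groups did not overlap, and the call was gained in a fit of the D6 libraries alone (0.00484), with voom weights (0.00107), with quantile normalization (0.00995) and with the replicate block (0.0451).

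The Id genes of the pathway's response differed from one another at day 3. Promoter sequence is shown for Id2 and Id3, which rose together with retinoic acid by day 3, and for Bmp4, which had the largest day 6 difference of the 10 genes. Each run is the 250 bases before the RefSeq start site, 5′ to 3′ on the strand of the gene, in build GRCm38.p6: chr12:25096093-25096342 (minus strand) for Id2, chr4:136143572-136143821 (plus strand) for Id3 and chr14:46390670-46390919 (minus strand) for Bmp4. Capitals mark the letters GGCGCC, a core of known BMP response elements, and GTCT, the core bound by Smad4, or its reverse complement.
Id2: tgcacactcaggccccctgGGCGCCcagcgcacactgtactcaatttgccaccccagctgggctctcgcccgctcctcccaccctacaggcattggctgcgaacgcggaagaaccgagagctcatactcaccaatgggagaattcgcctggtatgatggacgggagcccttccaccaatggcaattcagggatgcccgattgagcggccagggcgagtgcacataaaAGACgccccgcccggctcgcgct
Id3: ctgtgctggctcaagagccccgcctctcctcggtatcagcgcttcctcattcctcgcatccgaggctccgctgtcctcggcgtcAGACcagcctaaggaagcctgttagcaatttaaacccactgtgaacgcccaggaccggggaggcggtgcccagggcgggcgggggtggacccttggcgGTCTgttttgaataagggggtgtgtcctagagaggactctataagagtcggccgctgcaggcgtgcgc
Bmp4: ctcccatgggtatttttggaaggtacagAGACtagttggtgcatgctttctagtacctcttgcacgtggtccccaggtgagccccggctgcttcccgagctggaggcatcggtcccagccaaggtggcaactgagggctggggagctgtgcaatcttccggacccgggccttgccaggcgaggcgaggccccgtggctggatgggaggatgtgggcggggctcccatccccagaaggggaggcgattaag

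Of the 10 genes, 4 were matched to the RefSeq promoter table (Id2, Id3, Bmp4 and Smad6). Bmp2, Bmp7, Id1, Nog and Fst had no match, and Smad7 was left out of the search. GGCGCC, which reads the same on both strands, occurred 1 time, 231 to 226 bases before the Id2 start site, and in 9.59% of the 32851 promoter windows of that length. GTCT, searched on both strands, occurred 1 time each for Id2 and Bmp4 and 2 times for Id3. It is present in 82.9% of all windows, so its presence separates these genes from few others. In the 224 bases of the Smad6 window that lie before every RefSeq model of the gene, neither was found. GGCGCCNNNNNGTCT, the spacing of a known BMP response element, was in none of the 4 and in 0.07% of all windows. These matches describe the letters in the windows and are not measured binding sites.

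Id1 was highest in D6DMSO and lowest in D6RA. It was at 48.6, 49.1 and 48.6 CPM in D0, 51.8, 64.9 and 48.6 CPM in D3DMSO and 46.5, 33.5 and 33.8 CPM in D3RA. In D6DMSO it was at 98.6, 98.2 and 84.2 CPM and in D6RA at 23.2, 24.3 and 22.8 CPM, above and below all other libraries. Retinoic acid minus DMSO was -0.54 ± 0.12 at day 3 and -1.995 ± 0.12 at day 6 (log2, n = 3 per group, limma adjusted p = 0.00101 and 2.46e-10). D3DMSO was not called different from D0 (adjusted p = 0.26). D3RA was called lower than D0 by -0.37 ± 0.12 (adjusted p = 0.0116), a call lost with voom weights (0.0936), without D3RA replicate 2 (0.0587) and without D3RA replicate 3 (0.0547).

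Id2 and Id3 took another course at day 3. Id2 was at 28.9, 37.0 and 35.1 CPM in D0 and 19.2, 30.0 and 26.0 CPM in D3DMSO, and at 162, 186 and 147 CPM in D3RA. The rise over D3DMSO was 2.73 ± 0.13 on the log2 scale (limma adjusted p = 3.06e-11), and 564 of the 14717 genes had a higher value. Id3 was at 39.3, 37.3 and 32.9 CPM in D0, 62.1, 61.6 and 49.4 CPM in D3DMSO and 155, 122 and 105 CPM in D3RA. D3RA exceeded D3DMSO by 1.13 ± 0.13 (limma adjusted p = 1.19e-06), with no overlap. At day 6, both were lower with retinoic acid than with DMSO. Id2 was at 144, 132 and 122 CPM in D6DMSO and 108, 106 and 104 CPM in D6RA, and Id3 at 106, 87.6 and 81.7 CPM and at 62.8, 58.4 and 58.0 CPM. The difference was -0.61 ± 0.13 for Id3 (limma adjusted p = 0.000561) and -0.32 ± 0.13 for Id2 (0.0457). The Id2 call was lost in limma without the trend (0.0839), and without D6DMSO replicate 1 (0.151), D6DMSO replicate 2 (0.0883), D6RA replicate 1 (0.0749), D6RA replicate 2 (0.0883) or D6RA replicate 3 (0.101). Against D0, Id2 was called lower in D3DMSO by -0.44 ± 0.13 (adjusted p = 0.0107), a call lost without D0 replicate 2 (0.0539) or D3DMSO replicate 1 (0.0634; log2 fold change -0.26), and Id3 higher by 0.66 ± 0.13 (0.000427).

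Both inhibitory Smad genes were lower in D6RA than in D6DMSO. Smad6, whose product competes for Smad4 and for the receptors, was at 5.74, 5.98 and 4.92 CPM in D0, 11.9, 9.44 and 9.14 CPM in D3DMSO and 11.6, 9.77 and 8.22 CPM in D3RA. Both D3 groups lay above D0, by 0.86 ± 0.19 and 0.83 ± 0.19 (log2, limma adjusted p = 0.00115 and 0.00112, with shared D0 libraries), and they overlapped with one another (-0.04 ± 0.19, adjusted p = 0.883). In D6DMSO Smad6 was at 29.0, 27.7 and 17.2 CPM and in D6RA at 4.40, 4.92 and 5.38 CPM, a difference of -2.29 ± 0.19 (limma adjusted p = 1.60e-08).

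Smad7, which also restrains TGF-beta and activin signals, fell from D0 on both routes. It was at 42.8, 33.8 and 40.7 CPM in D0, 18.2, 16.2 and 11.3 CPM in D3DMSO and 17.0, 14.006 and 19.2 CPM in D3RA. The differences from D0 were -1.37 ± 0.17 and -1.22 ± 0.17 (log2, limma adjusted p = 4.65e-06 and 9.50e-06), and the D3 groups overlapped (0.16 ± 0.17, adjusted p = 0.454). It was at 40.6, 38.4 and 30.5 CPM in D6DMSO, which overlaps with D0, and at 9.004, 11.7 and 10.1 CPM in D6RA. Retinoic acid minus DMSO at day 6 was -1.83 ± 0.17 (limma adjusted p = 7.38e-08).

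Of the antagonists, Fst changed most. It was at 36.9, 41.4 and 34.3 CPM in D0, and at 574, 478 and 566 CPM in D3DMSO. In D3RA it was at 3.92, 5.21 and 2.28 CPM, from 43, 16 and 5 counts. D3DMSO lay above D0 by 3.84 ± 0.19 and D3RA below D0 by -3.31 ± 0.19 (log2, limma adjusted p = 1.04e-10 and 2.21e-10). D3RA was 143-fold below D3DMSO (-7.16 ± 0.19, n = 3 per group, limma adjusted p = 3.04e-14), and 17 of the 14717 genes had a lower value. In D6DMSO Fst was at 30.3, 28.9 and 32.4 CPM, below D0 without overlap, and in D6RA at 1.19, 1.52 and 1.22 CPM (-4.53 ± 0.19, limma adjusted p = 2.90e-12). The peak of Fst thus lay in D3DMSO, where the streak and mesoderm markers T, Tbx6, Eomes, Fgf8 and Wnt3a summed to 1179 to 1301 CPM. The part of those cells in the Fst level was not tested.

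Nog was low in all groups but D6DMSO. It had 12, 3 and 12 counts in the D0 libraries (1.23, 0.472 and 1.13 CPM), and was at 2.49, 0.821 and 1.70 CPM in D3DMSO and 2.37, 1.63 and 2.74 CPM in D3RA. The D3 groups were not called different from each other (0.54 ± 0.37, adjusted p = 0.217). D3RA was called above D0 (1.31 ± 0.37, limma adjusted p = 0.00441) and D3DMSO was not (0.78 ± 0.37, adjusted p = 0.0819). In D6DMSO Nog was at 13.1, 12.01 and 12.5 CPM, over all other libraries, and in D6RA at 1.49, 1.80 and 1.503 CPM. The difference was -2.96 ± 0.37 (limma adjusted p = 1.88e-06). The ligand gene Bmp4 and the gene of its antagonist noggin were thus both highest in D6DMSO.

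**Figure D2:**
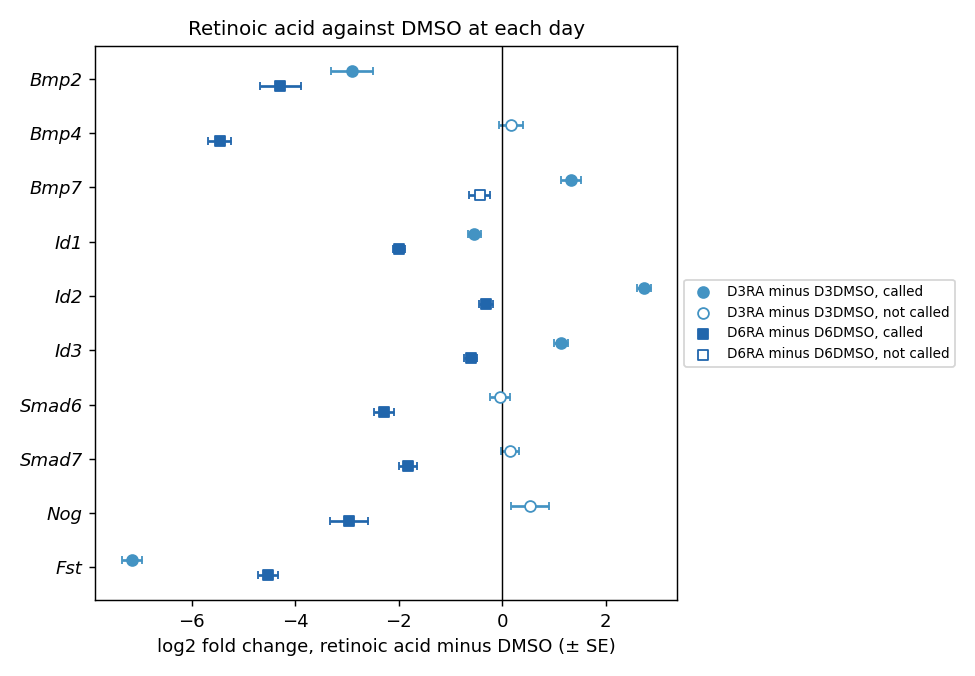
Log2 fold change of retinoic acid minus DMSO (± SE, limma, 3 libraries a group) for each of the 10 genes at day 3 (circles) and day 6 (squares), with open symbols for genes that were not called. At day 6 all 10 values are below 0, from -0.32 for Id2 to -5.46 for Bmp4, and at day 3 they run from -7.16 for Fst to 2.73 for Id2.

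The treatment difference itself changed between the days. The difference at D6 less that at D3 was called for 9 of the 10 genes, 8 lower and 1 higher, where 48.5% of all genes were called, 23.1% lower and 25.4% higher (limma, adjusted by Benjamini-Hochberg). It was -5.63 ± 0.32 for Bmp4, -3.50 ± 0.52 for Nog, -3.05 ± 0.19 for Id2, -2.26 ± 0.27 for Smad6, -1.98 ± 0.25 for Smad7, -1.77 ± 0.28 for Bmp7, -1.74 ± 0.19 for Id3 and -1.46 ± 0.17 for Id1. Id2 and Id3 were called at both days in opposite directions, higher in D3RA and lower in D6RA, and 4.42% of all genes were called that way and 7.78% in opposite directions of either kind. Fst was the gene that was higher, with 2.63 ± 0.28, since its very large deficit at day 3 was smaller at day 6. Bmp2 had -1.38 ± 0.57 and was not called (adjusted p = 0.0532), a call gained in a fit of the D3 and D6 libraries alone (0.00935), with voom weights (0.0208), with median-of-ratios scaling (0.0496), with the replicate block (0.045) and without D3RA replicate 2 (0.0168).

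From D0, 5 of the 10 genes were called higher and 2 lower in D3DMSO, where 56.1% of all genes were called, 28.2% higher and 27.8% lower. In D3RA, 5 were called higher and 3 lower, where 68.9% of all genes were called, 35% higher and 33.9% lower. Both comparisons share the D0 libraries. From day 3 to day 6, with DMSO, 8 were called higher, where 56.4% of all genes were called, 28.3% higher and 28.1% lower. Fst was called lower, by -4.14 ± 0.19, and Bmp2 was not called (0.88 ± 0.40, adjusted p = 0.0706, and 0.0017 in a fit of the DMSO libraries alone). With retinoic acid, 8 were called lower and 0 higher, where 69.3% of all genes were called, 32% lower and 37.2% higher. Bmp2 and Nog were not (adjusted p = 0.274 and 0.2). The called falls ran from -0.63 ± 0.13 for Id2 to -1.73 ± 0.23 for Bmp4.

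**Figure D3:**
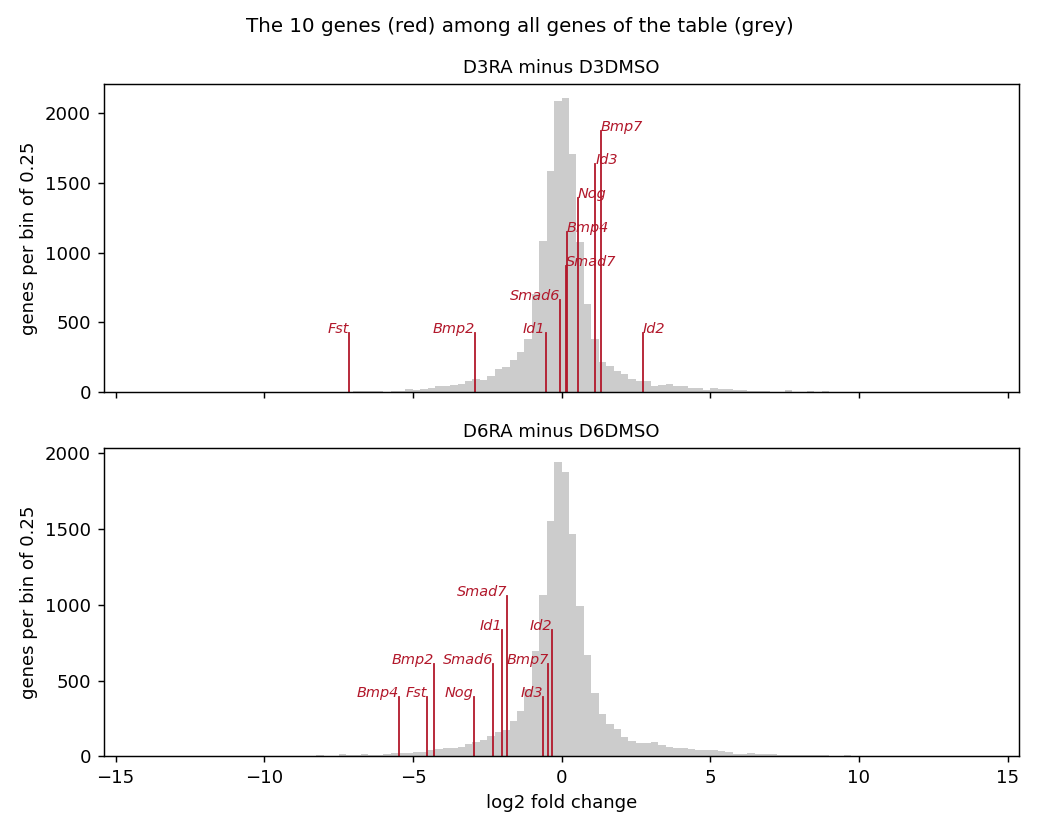
Number of genes of the table per bin of log2 fold change (grey bars, bins of 0.25) for retinoic acid minus DMSO at day 3 (top) and day 6 (bottom), with the 10 genes as red lines whose heights only space the names. At day 6 all 10 lie left of 0, with Bmp4, Fst and Bmp2 in the lower tail, and at day 3 they lie on both sides.

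Other genes of the pathway were taken from a list of 61, of which 43 were in the table. In D6RA against D6DMSO, 18 of the 43 were called higher, 13 lower and 12 were not called, with a median log2 fold change of 0.24. At day 3 it was 21 higher, 10 lower and 12 not called, with a median of 0.47. Called shares were 72.1% on both days, against 65.8 and 62.1% of all genes. These genes had calls in both directions at day 6.

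Of the ligands, 4 of 14 were measured. Bmp6 was at 5.97 ± 0.12 CPM (mean ± SD, n = 3) in D3RA and 0.349 ± 0.24 CPM (from 2, 3 and 1 counts) in D3DMSO, higher by 3.98 ± 0.43 (limma adjusted p = 5.31e-07). At day 6 it was the other way round, with 0.665 ± 0.32 CPM in D6RA and 5.32 ± 0.75 CPM in D6DMSO. Gdf3, a ligand of pluripotent cells, had 225 counts in D3DMSO and 2 in D3RA, both in D3RA replicate 2, and it was at 0 in the other D3RA libraries. The ratio of the summed counts was 98.4 (26.9 to 817, a 95% interval for counting error only) and that of the fit was 54.2, which depends on the added count. At day 6 it was lower with retinoic acid by -4.28 ± 0.71 (limma adjusted p = 4.46e-05).

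Of the receptors and co-receptors, 10 of 11 were measured, and 7 were called higher and 0 lower in D3RA than in D3DMSO, where 30.7% of all genes were called higher and 31.4% lower. Acvrl1, the type I receptor of endothelium, was at 10.7 ± 0.34 and 0.543 ± 0.45 CPM, the latter from 1, 5 and 3 counts (4.43 ± 0.44, limma adjusted p = 2.22e-07, and 3.79 without D3DMSO replicate 1). At day 6, 6 were called higher and 2 lower with retinoic acid, where 32.6 and 33.1% of all genes were. Bmpr1b, a type I receptor of neural and skeletal tissue, was at 59.1 ± 0.92 CPM in D6RA and 1.34 ± 0.22 CPM in D6DMSO (5.45 ± 0.17, limma adjusted p = 4.63e-14). It had also been higher at day 3, at 30.8 ± 5.3 against 1.77 ± 0.21 CPM. The 2 called lower at day 6 were Eng, an endothelial co-receptor, and Acvrl1. Eng was at 1.496 ± 0.059 against 7.83 ± 1.4 CPM (-2.36 ± 0.39, limma adjusted p = 4.16e-05) and Acvrl1 at 0.890 ± 0.29 against 4.21 ± 0.55 CPM (-2.27 ± 0.44). The 5 endothelial markers (Kdr, Cdh5, Pecam1, Tek and Emcn) summed to 142 to 198 CPM in D3RA, 34.1 to 63.8 CPM in D3DMSO, 142 to 167 CPM in D6DMSO and 18.5 to 26.6 CPM in D6RA. Emcn was at 0 in D3DMSO. At day 3 the mean of each of the 5 was higher in D3RA. At day 6 they did not move as one: Kdr made up most of the D6DMSO sum (124 against 8.64 CPM in D6RA), Tek and Emcn also lay lower in D6RA without overlap, Cdh5 overlapped (5.04 to 8.38 against 4.80 to 6.88 CPM), and the mean of Pecam1 was higher in D6RA (4.79 against 3.59 CPM). The part of endothelial cells in the Acvrl1, Eng and Bmp6 values was not tested.

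Of 4 signal-carrying Smads, 3 were measured. Smad5 was higher with retinoic acid at both days, by 0.47 ± 0.08 and 0.60 ± 0.08 (limma adjusted p = 0.000102 and 5.54e-06), and stood at 188 ± 4.6 CPM in D6RA and 124 ± 3.5 CPM in D6DMSO. Smad1 was lower at day 3 by -0.35 ± 0.09 (adjusted p = 0.00384) and higher at day 6 by 0.45 ± 0.09. Smad4, the partner of both, was not called at either day.

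Of 13 measured antagonists of 17, 5 were called higher and 4 lower with retinoic acid at each day. That is 69.2% called, near the 62.1% of all genes at day 3 and the 65.8% at day 6. Cer1, a secreted antagonist of the streak and endoderm, had 37 counts in D3DMSO and 0 in D3RA, at least 10.8-fold lower when 3 counts in the group are taken as the floor. Bambi, a pseudoreceptor that is itself induced by BMP, was at 6.35 ± 0.050 CPM in D6RA and 58.8 ± 8.8 CPM in D6DMSO (-3.20 ± 0.10, limma adjusted p = 8.98e-14).

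Among the 8 proteases and intracellular regulators, Bmp1, the protease that frees BMPs from chordin, was higher in D3RA by 2.16 ± 0.15 (limma adjusted p = 2.93e-09). Bmp1 was also higher in D6RA than in D6DMSO, by 1.145 ± 0.15 (limma adjusted p = 4.78e-06). Tll2, a related protease, was lower at day 3 by -2.02 ± 0.47 and higher at day 6 by 3.79 ± 0.47 (limma adjusted p = 0.0013 and 1.83e-06). Ski, a repressor of Smad complexes, was lower at day 6 by -0.57 ± 0.10 (9.99e-05). Of the 5 measured targets of 7, Id4, a further Id gene, was higher with retinoic acid at both days. It was at 33.7 ± 2.0 CPM in D6RA and 5.06 ± 0.48 CPM in D6DMSO (2.73 ± 0.15, limma adjusted p = 8.33e-11), and higher in D3RA than in D3DMSO by 3.17 ± 0.15 (2.44e-11), where Id2 and Id3 were higher as well. Msx1, a homeobox gene induced by BMP, was lower in D6RA than in D6DMSO, at 5.50 ± 1.2 against 51.7 ± 7.1 CPM (-3.24 ± 0.29, limma adjusted p = 3.49e-08).

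**Figure D4:**
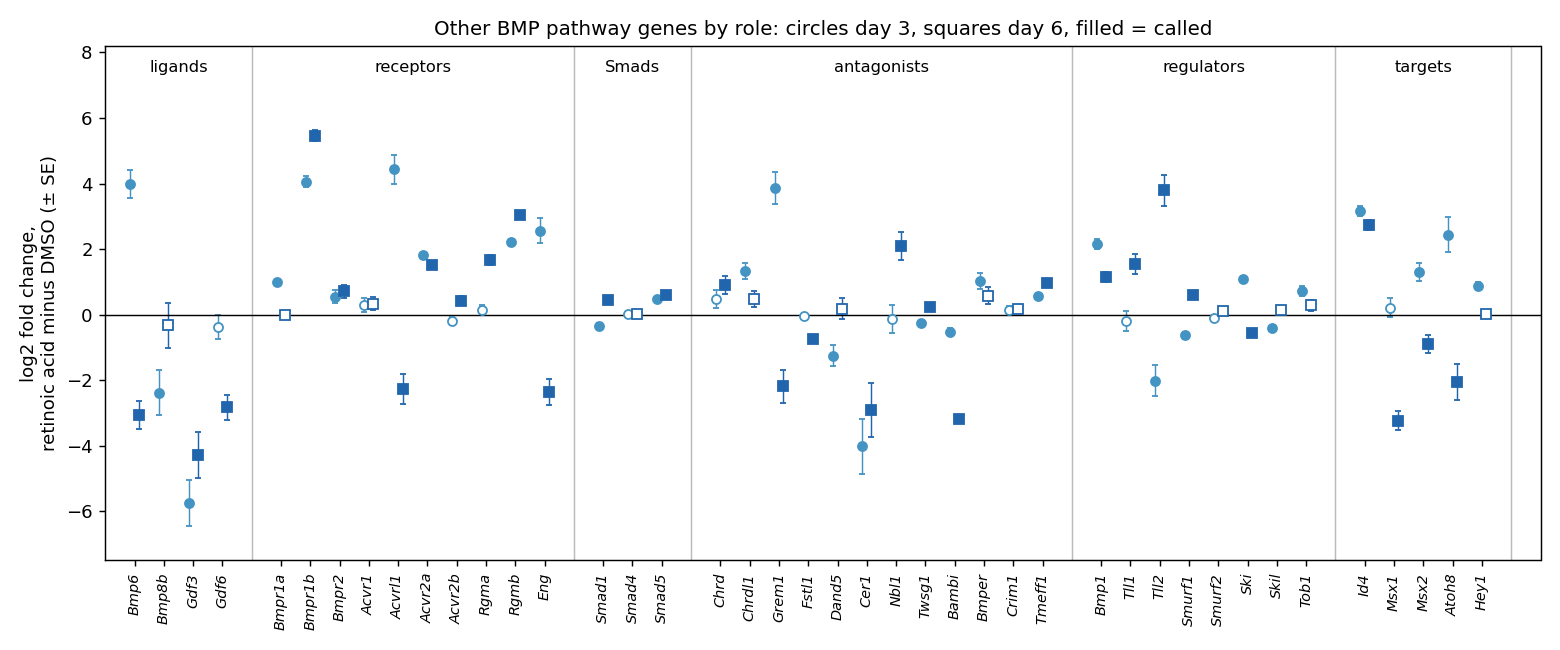
Log2 fold change of retinoic acid minus DMSO (± SE, limma) for 42 of the 43 other pathway genes in the table, grouped by role, at day 3 (circles) and day 6 (squares), filled where called. Bmpr1b and Id4 are above 0 at both days, and Bambi and Msx1 are at -3.20 and -3.24 at day 6.

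Genes with the most similar course over the 15 libraries were looked for among 10651 genes with a symbol and a mean of at least 5 CPM. For Bmp4 the 3 closest were Hbegf, which encodes an EGF family growth factor (Pearson r = 0.965), Capn6, a calpain family gene (0.960), and Itga9, an integrin subunit (0.960). Itga9 was at 96.7 ± 3.7 CPM in D6DMSO and 5.14 ± 0.23 CPM in D6RA. For Id1 they were Rad54b, a gene of DNA recombination (0.974), Pik3c2a, a lipid kinase (0.967), and Zfp976 (0.966). Rad54b was at 44.6 ± 2.9 CPM in D6DMSO and 17.8 ± 0.87 CPM in D6RA. These values describe 15 libraries in 5 groups that share their treatment and depth, and carry no test.

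The high levels of Bmp2, Bmp4, Id1, Smad6 and Nog in D6DMSO coincided with other differences between these libraries. The other members had their highest mean elsewhere, Bmp7, Id2 and Id3 in D3RA, Smad7 in D0 and Fst in D3DMSO. The 5 smooth muscle and mesenchyme markers summed to 456 to 546 CPM in D6DMSO, 9.63 to 12.2 CPM in D6RA and 48.6 to 128 CPM in the other groups. Acta2 (274 to 322 CPM) and Tagln (144 to 171 CPM) made up most of the D6DMSO sum. All 5 lay higher in D6DMSO than in D6RA, but not all peaked in D6DMSO. Col3a1 was at 5.82 to 8.99 CPM there and 30.6 to 32.6 CPM in D3RA. Postn was at 0.569 to 1.36 CPM there and 5.80 to 8.42 CPM in D3DMSO. The 4 measured neural progenitor markers of 6 listed summed to 600 to 611 CPM in D6RA and 136 to 153 CPM in D6DMSO, and the 4 measured markers of dorsal neural tube and crest of 6 listed to 544 to 619 and 23.6 to 26.9 CPM. Zic1 (337 CPM) and Pax3 (218 CPM) made up most of that sum in D6RA, and the mean of the crest gene Foxd3 was lower there (0.445 against 0.752 CPM). The 4 measured markers of extraembryonic endoderm of 6 listed summed to 281 to 309 CPM in D6DMSO and 273 to 283 CPM in D6RA. Their members differed in opposite directions, with Sparc at 251 against 92.3 CPM, Sox17 at 3.43 against 0.949 CPM and Lama1 at 33.2 against 178 CPM. The part of any of these cell types in the BMP pathway values was not tested. RefSeq lists long non-coding RNA genes that overlap Bmp4, Bmp7, Smad7 and Fst, and whether the authors' counting used strand is not given in the sources used here.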

How the data were processed

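RNA from 15 libraries of P19 cells was sequenced single end on a NextSeq500 after a stranded kit that depletes ribosomal RNA, per the labels' protocols. The submitters' processing notes name the aligners STAR 2.6.0c and Bowtie2 2.2.9, the counter featureCounts, Trimmomatic 0.32, limma, edgeR and build mm9, and do not say which of them made the table. The authors deposited 1 log2 value per library for each of 14717 genes, and 14228 Ensembl IDs had a symbol in the name table. Undoing the log2 and taking off 1 constant per library and an added count of 0.5 gave whole numbers (100% of values within 0.05), which were taken as read counts. CPM uses library sizes in the ratio of the deposited constants (2.19 to 31.9 M), set to the geometric mean of the non-mitochondrial counts. Low counts limit Bmp2, Bmp4, Bmp7, Nog and Fst most. Nog had 27, 33 and 37 counts in D0, D3DMSO and D3RA, and Bmp2 and Fst had 24 and 64 in D3RA. Bmp4 had 84, 73 and 68 counts in D0, D3DMSO and D3RA, and Bmp7 had 73 in D0.

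The deposited log2 values were fitted in R 4.3.3 by limma 3.58.1 with its variance trend, 1 coefficient per group and 10 residual degrees of freedom. The filter of 1 CPM in 3 libraries removed none of the 14717 genes. Tables and figures used Python 3.11.15. The code was tested on simulated counts. The members, gene lists and motifs were chosen with earlier results of these data known. Named other genes are, per role and for each day, the called gene with the highest and the one with the lowest treatment difference at 1 CPM or more, plus the 3 closest in pattern to Bmp4 and to Id1. A gene named by this rule is not reported here and was left out of the plot, but stays in the counts. Genes of the lists without a row are not analysed here. Alternatives were other scalings, added counts, filters, variance models, a replicate block, a fit of only the compared groups, and each library left out in turn. Same-numbered libraries deviated together (all 3 correlations over 0.1, across genes of at least 10 CPM) in 2 of 10 pairs of groups, D0 with D3DMSO and D3DMSO with D3RA. The titles give only the number.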

Additional observations from a re-analysis of the deposited data

Results flagged for a closer look

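The difference between retinoic acid and DMSO was not the same at the 2 days for 9 of the 10 genes, by the limma test of D6RA minus D6DMSO less D3RA minus D3DMSO with Benjamini-Hochberg adjustment over all genes. The values (log2) were -5.63 for Bmp4, -3.5 for Nog, -3.05 for Id2, -2.26 for Smad6, -1.98 for Smad7, -1.77 for Bmp7, -1.74 for Id3, -1.46 for Id1 and 2.63 for Fst. The sign of the difference turned, with a call at both days, for Id2 (2.73 at day 3 and -0.32 at day 6) and Id3 (1.13 and -0.61). The day 6 call of Id2 depended on single libraries. With 3 libraries a group, single libraries that stand apart were not looked for by a test.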

How the results depend on the processing

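The numbers of genes called stayed within 1.5 times of those reported under every alternative run, for each of the 7 comparisons. For D3RA against D3DMSO 9136 genes were called, with 7339 to 9287 under the other settings and 8671 to 8948 without 1 library. For D6RA against D6DMSO it was 9678, with 8768 to 11413 and 8890 to 9066. Of the 70 pairs of a member and a comparison, 56 were called, and 53 of these kept their direction and call in every alternative. The exceptions are Id1 in D3RA against D0, Id2 in D3DMSO against D0 and Id2 at day 6, given above. No called value changed direction. Values that were not called and lay near 0 turned sign: for Bmp2 in D3RA against D0 (0.07) the log2 fold change was -0.14 with quantile normalization, -0.038 with the added count scaled to library size, -0.52 without D0 replicate 2, -0.14 without D3RA replicate 1 and -0.06 without D3RA replicate 3 (range without 1 library -0.52 to 0.45). For Smad6 in D3RA against D3DMSO (-0.04) it was 0.06 with voom weights, 0.080 without D3DMSO replicate 1 and 0.079 without D3RA replicate 3 (range -0.15 to 0.080), and for Smad7 (0.16) -0.045 without D3DMSO replicate 3 (range -0.045 to 0.297). The cause was not tested. Calls of 2 further results were gained by leaving out a library: Bmp4 in D3RA against D0 without D0 replicate 2 (adjusted p = 0.0356), and Nog in D3DMSO against D0 without D0 replicate 1 (0.0497) or D3DMSO replicate 2 (0.01). Quantile normalization moved the median of all genes by -0.13 in D6RA against D3RA. With the replicate block, 9287 genes were called for D3RA against D3DMSO and 9808 for D6RA against D6DMSO, and the block changed no member's call other than Bmp7 at day 6 and the change of Bmp2 between days. The D6 groups did not pair by number, and the change between days uses them together with D3DMSO and D3RA, whose numbers deviated together. The filter of 5 CPM in 3 libraries kept all 10 members and left out Cer1 and Tll2 of the 15 other named genes chosen by role.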

Other observations

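Genes whose treatment difference turned between the days were picked out after their values were seen. Of the 43 other pathway genes, 11 were called in both day 3 and day 6 and in opposite directions, where 7.78% of all genes were (25.6% of the 43). In 7 of them the level was higher with retinoic acid at day 3 and lower at day 6, where 4.42% of all genes were: Bmp6, Acvrl1, Eng, Grem1, Atoh8, Msx2 and Ski. Among the 10 members, Id2 and Id3 had the same course. The change between days was -7.05 for Bmp6, -6.70 for Acvrl1, -6.06 for Grem1, which encodes the BMP antagonist gremlin, -4.92 for Eng, -4.50 for Atoh8, -2.20 for Msx2 and -1.66 for Ski on the log2 scale (limma adjusted p from 7.65e-08 to 0.000206). In the D3DMSO libraries Bmp6 had 2, 3 and 1 counts, Acvrl1 1, 5 and 3, Grem1 1, 1 and 0 and Eng 3, 2 and 2. The sizes of their changes therefore depend on the added count. Acvrl1 and Eng belong together in endothelium, where they form part of the receptor for the circulating ligands of the family. The summed level of the endothelial markers also was higher in D3RA than in D3DMSO and lower in D6RA than in D6DMSO, with the ranges given in the report. In D6DMSO that sum was mostly Kdr, while between the D6 groups Cdh5 overlapped and the mean of Pecam1 was higher in D6RA. The part of endothelial cells in these values was not tested.

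In the other 4 the difference ran from lower at day 3 to higher at day 6: Tll2, with a change of 5.81, Smurf1, a ubiquitin ligase that targets Smads, with 1.25, Smad1 with 0.79 and Twsg1 with 0.48 (limma adjusted p from 1.96e-06 to 0.00284).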
